A study of Drosophila melanogaster with 20 samples.

Results

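Methyl marks on lysine 27 of histone H3 were compared within the salivary glands of SuUR mutant larvae: the trimethylated form, H3K27me3, and the dimethylated form, H3K27me2. The compared items were genomic windows of 50 kb placed every 5 kb. The H3K27me3 profile held 27631 windows and the H3K27me2 profile 27611 windows, and 27585 windows were present in both by chromosome and window centre. Of these, 23930 lay on X, 2L, 2R, 3L, 3R or chromosome 4 (the arms), and 3655 lay on the heterochromatic scaffolds 2LHet, 2RHet, 3LHet, 3RHet, XHet and YHet and on the unplaced scaffold U. Each profile came from 1 ChIP library and 1 input library, so the SuUR comparison rests on 4 of the 20 libraries of the series.

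The gland libraries of the series addressed whether the effect of the SuUR mutation on H3K27 methylation concerns the trimethylated or the dimethylated form. Glands of SuUR mutants and of y,w larvae, the wild type control, were taken from flies raised at 23 °C, and the labels give 20 pairs of glands as starting material. H3K27me3 was precipitated with antibodies 9733 of Cell Signaling Technology and H3K27me2 with antibodies 07-452 of Millipore. The deposited value of a window is log2 of the ChIP/input signal. With 1 profile per genotype and mark no difference could be tested, and every value below describes these libraries.

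H3K27me3 is set by Polycomb repressive complex 2 and forms domains over silenced developmental genes, where it is bound by the Polycomb protein. H3K27me2 is made by the same enzyme and is known to be spread widely over chromatin that carries neither Polycomb domains nor active transcription. SUUR is a chromatin protein of late-replicating regions that slows replication in polytene cells, and without it many regions that stay under-replicated in gland chromosomes complete replication. Het scaffolds are the assembled parts of pericentric heterochromatin and of the Y chromosome, and U joins sequences that could not be placed on a chromosome.

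The marks were normalized separately, so each window was ranked within its own profile and given a percentile between 0 and 100. A window was called high in a mark when its percentile exceeded 75, that is, when it belonged to the top 25% of that profile. The lowest high window had a log2 value of 0.115 for H3K27me3 and 0.185 for H3K27me2, and the highest window below the limit had 0.11 and 0.18. Because of ties, 24.8% of the joined windows were high in H3K27me3 and 25.1% in H3K27me2. H3K27me3 values ranged from −3.99 to 3.155 with a median of −0.08, and H3K27me2 values from −3.47 to 3.19 with a median of 0.02. Their quartiles were −0.245 and 0.11 for H3K27me3 and −0.155 and 0.185 for H3K27me2.

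In SuUR mutants the number of windows high in both marks lay near the product of the separate shares. High in both were 2047 windows, or 7.42% of all. High in H3K27me3 only were 4790 windows (17.4%), and high in H3K27me2 only were 4884 windows (17.7%). The remaining 15864 windows (57.5%) were high in neither. The product of the separate shares would place 6.23% of windows in both classes of high signal, or 1718 windows, and the number seen was 1.19 times that. Over the 10 grids of non-overlapping windows, ranked on their own, this ratio ranged from 1.11 to 1.31. On the arms and chromosome 4 the ratio was 1.34 and on the scaffolds 1.10, with shares of high windows taken within each. Median log2 values of the windows high in both were 0.35 for H3K27me3 and 0.29 for H3K27me2. Windows high in H3K27me3 only had a median H3K27me2 value of 0.005, against −0.075 in windows high in neither. Windows high in H3K27me2 only had a median H3K27me3 value of −0.145, against −0.165 in windows high in neither. Each of these classes leaves out windows high in the other mark by definition, so its median cannot be set against that of all windows.

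The arms and the scaffolds differed in which mark stood high. Scaffolds supplied 35.3% of the windows high in H3K27me2 only, 15.0% of those high in both and 4.07% of those high in H3K27me3 only. On the scaffolds 55.6% of windows were high in H3K27me2 and 13.8% in H3K27me3, against 20.5% and 26.5% on the arms and chromosome 4. The median percentile on scaffolds was 17.9 for H3K27me3 (quartiles 4.28 and 51.7) and 81.3 for H3K27me2 (quartiles 44.0 and 95.6). On arms and chromosome 4 the medians were 53.2 and 47.0. H3K27me3 ranked above H3K27me2 in 57.8% of windows on arms and chromosome 4 and in 16.4% of windows on scaffolds. Windows in the lowest 25% of H3K27me3 and the top 25% of H3K27me2 at once made up 28.2% of scaffold windows (1029) and 2.30% of windows on arms and chromosome 4 (551).

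**Figure D1:**
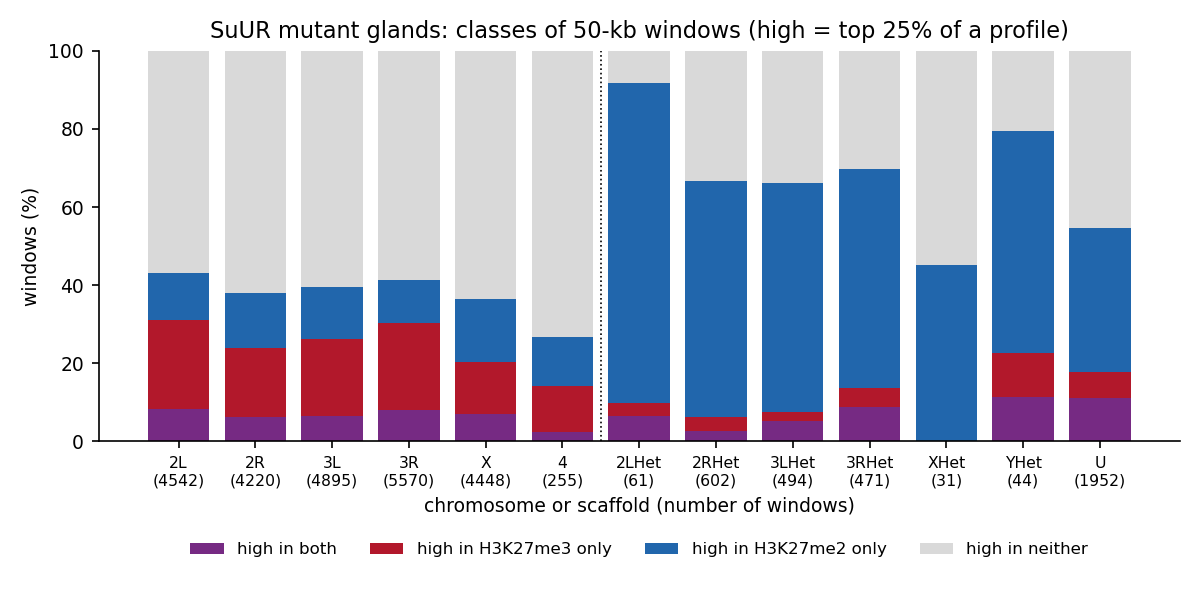
Share of 50-kb windows in each class on every chromosome and scaffold of SuUR mutant glands, in percent, with the number of windows under each bar. Blue, the class high in H3K27me2 only, takes between 36.7% and 82.0% of the windows on each scaffold right of the dotted line and between 11.1% and 16.2% on each arm and chromosome 4.

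Every scaffold had a larger share of windows high in H3K27me2 only than any arm. The share was 82.0% on 2LHet (61 windows), 60.5% on 2RHet (602 windows), 58.7% on 3LHet (494 windows) and 56.1% on 3RHet (471 windows). On the small scaffolds it was 56.8% for YHet (44 windows) and 45.2% for XHet (31 windows), and on U it was 36.7% (1952 windows). These windows overlap 10 deep, so XHet and YHet hold only 4 and 5 windows that share no sequence. YHet was the most divided, with a median percentile of 1.23 for H3K27me3 and 97.2 for H3K27me2. On 3RHet the medians were 15.6 and 88.7, on 2RHet 27.2 and 84.0, on 3LHet 29.3 and 83.5, and on 2LHet 33.0 and 91.4. U, with medians of 11.5 and 70.4, also had the larger spread of log2 values, with an SD of 0.66 for H3K27me3 and 0.65 for H3K27me2, against 0.39 and 0.24 on arms and chromosome 4. U held 216 of the 308 scaffold windows that were high in both marks.

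Among the arms, 2L and 3R were richest in windows high in H3K27me3 only, with 22.8% and 22.2%. The shares were 19.6% on 3L and 17.6% on 2R. The X chromosome had 13.3%, less than any autosomal arm, and 16.2% of its windows were high in H3K27me2 only, more than on any autosomal arm. Its median percentiles were 43.8 for H3K27me3 and 46.3 for H3K27me2, whereas 3R had 58.3 and 47.0, 2L 57.5 and 48.7, 3L 54.6 and 45.5, and 2R 50.8 and 45.5. The H3K27me2 medians thus lay within a few percentiles of each other on all arms, and the arms differed mainly in H3K27me3. Chromosome 4, which is short and largely heterochromatic, had medians of 25.1 for H3K27me3 and 49.6 for H3K27me2 (255 windows). Only 6 of its windows were high in both, 30 in H3K27me3 only and 32 in H3K27me2 only. Its H3K27me2 rank was therefore like that of the arms while its H3K27me3 rank lay near that of the Het scaffolds.

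The ranks of the marks were weakly related. Across 2765 non-overlapping windows Spearman's rho was 0.16 and Pearson's r 0.15. On arms and chromosome 4 rho was 0.27 (n = 2396 windows), and it ranged from 0.26 to 0.29 over the 10 ways of picking non-overlapping windows. Single arms lay between 0.24 for 2R and 0.31 for 3R, with 0.26 for 3L, 0.29 for 2L and 0.29 for X. On chromosome 4 rho was −0.00068 (n = 26 windows). On scaffolds together it was 0.20 (n = 369 windows), while 2RHet, 3LHet and 3RHet gave 0.016, 0.046 and 0.090 and U gave 0.26. All these points share the same libraries and their unknown depth. Neighbouring windows without shared sequence were themselves correlated on arms and chromosome 4, with r of 0.35 for H3K27me3 and 0.17 for H3K27me2. On scaffolds the same neighbour correlations were 0.014 and −0.042. These neighbour values are Pearson's r of log2 values and not of ranks, and scaffold runs high in H3K27me2 only reached 230 kb.

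On the arms the relation was not straight. In bins of 5 percentiles of H3K27me3, the median H3K27me2 percentile rose from 18.8 in the lowest bin (380 windows) to 49.6 between percentiles 45 and 50 and to 63.4 between 85 and 90. It was 62.0 between 90 and 95 and then 48.7 in the top bin (1224 windows, quartiles 27.8 and 68.9). In the top 1% of H3K27me3 it was 44.0 (257 windows), where the median log2 value of H3K27me3 was 1.88 and that of H3K27me2 was −0.015. The share of windows high in H3K27me2 followed the same course, with 7.63% in the lowest bin, 32.8% between 85 and 90, 30.4% between 90 and 95 and 19.3% in the top bin. Thus moderate H3K27me3 went with raised H3K27me2 and the strongest H3K27me3 with average H3K27me2. In the other direction, the median H3K27me3 percentile rose from 23.3 in the lowest H3K27me2 bin to 65.2 between percentiles 75 and 80, and it was 65.2 between 90 and 95 and 61.9 in the top bin.

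Most of the top H3K27me3 bin of the arms, 77.5% of its windows, was centred in a SuUR-non-sensitive region (SNR), a published class of regions described below. These SNR windows had a median H3K27me2 percentile of 48.7, and the 248 windows of the bin outside SNRs and SuUR-sensitive regions (SSRs) had 44.0. The 28 windows of the bin centred in SSRs had 77.3. The lower H3K27me2 rank in the top bin was therefore also present in the windows outside the listed regions.

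On the scaffolds the median H3K27me2 percentile stood between 81.4 and 92.2 in every H3K27me3 bin but the lowest. In the lowest bin, which held 983 scaffold windows, it was 58.8 with quartiles of 12.1 and 93.8. At the other end, scaffold windows in the lowest H3K27me2 bin had a median H3K27me3 percentile of 2.08 (266 windows). The scaffold windows with the lowest signal thus included a group that was low in both marks.

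**Figure D2:**
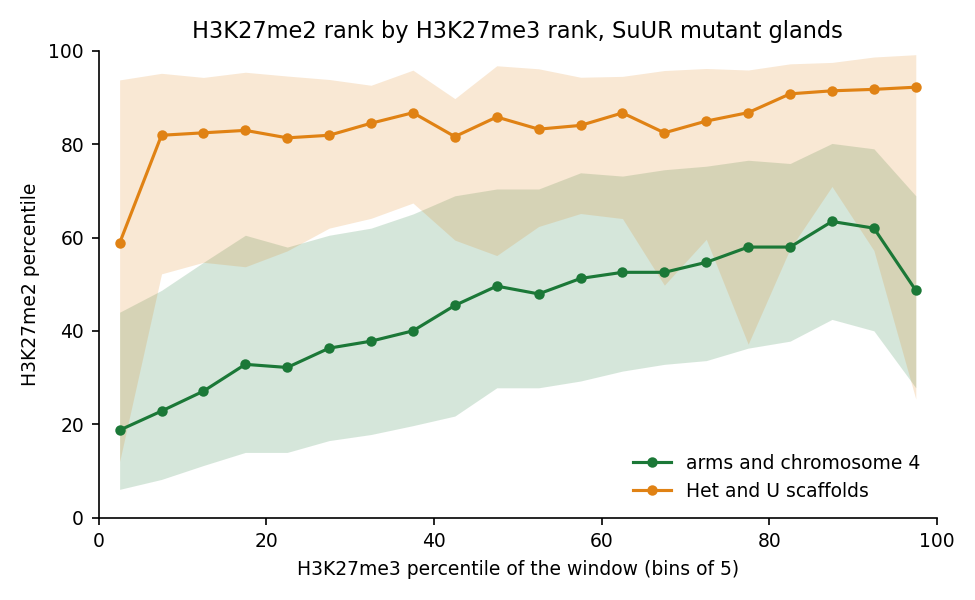
Median H3K27me2 percentile (line) with quartiles (band) of SuUR windows in bins of 5 H3K27me3 percentiles, for arms with chromosome 4 and for scaffolds. The green line climbs from 18.8 to 63.4 and falls to 48.7 in the last bin, and the orange line lies above it throughout.

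Position along the arms separated the marks near the centromere. In the 1 Mb next to the centromere-proximal end, the median percentiles of H3K27me3 and H3K27me2 were 28.6 and 84.2 on 2L, 36.0 and 85.8 on 2R, 30.8 and 84.9 on 3L, and 23.9 and 66.0 on X. Windows high in H3K27me2 made up 66.0%, 77.5%, 79.0% and 41.3% of these bins. The 3R arm was different, with medians of 30.8 and 37.5 and 13.0% of windows high in H3K27me2. H3K27me3 was thus low on all arms next to the centromere, and the H3K27me2 median was above 75 on 2L, 2R and 3L, but not on X and 3R. In the next 1 Mb the H3K27me2 medians were 48.7 on 2L, 65.8 on 2R, 62.0 on 3L, 44.0 on 3R and 68.2 on X. Beyond 2 Mb, no bin of at least 100 windows had more than 38.5% of its windows high in H3K27me2, a value reached on X. The bin with the most windows high in H3K27me3 lay between 2 and 3 Mb from the end of 3R, with 64.0% of its windows high and a median percentile of 86.5.

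**Figure D3:**
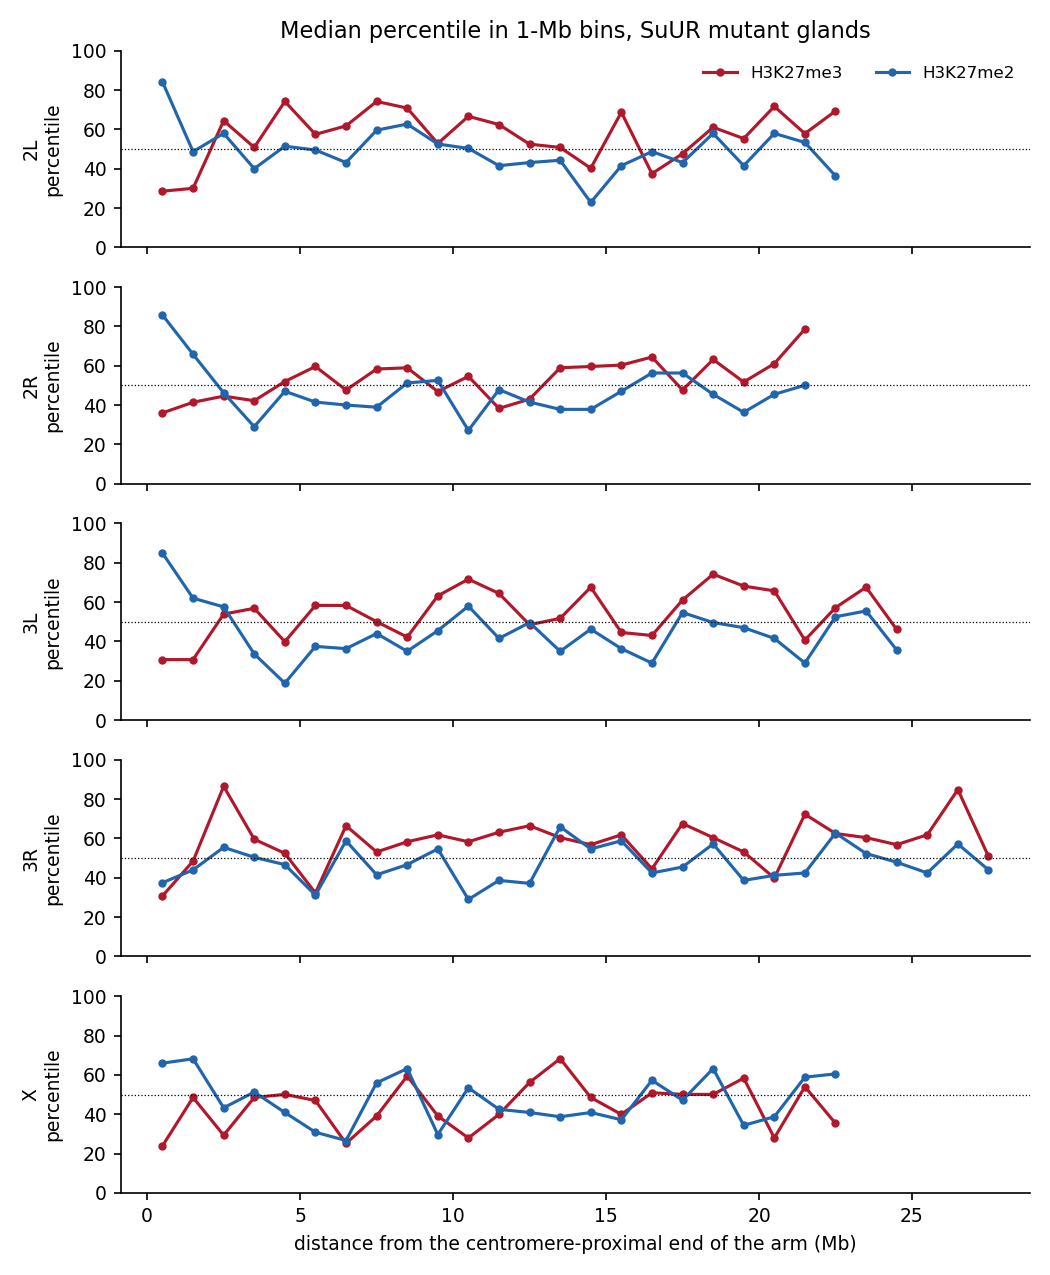
Median percentile of H3K27me3 (red) and H3K27me2 (blue) in SuUR mutant glands in 1-Mb bins against distance in Mb from the centromere-proximal end of each arm, with the dotted line at percentile 50. At the left edge blue stands above red on every arm, by most on 2L, 3L and 2R, and on 3R both lie below 50.

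Runs of neighbouring windows of one class were short on the whole, with a median of 2 windows for the class high in both and the class high in H3K27me3 only on arms and scaffolds alike. Runs of at least 10 windows numbered 28 on arms and 8 on scaffolds for the class high in both. For the class high in H3K27me3 only, 139 of these long runs lay on arms and 2 on scaffolds. For the class high in H3K27me2 only, 68 lay on arms and 67 on scaffolds. Long H3K27me2-only runs were thus as frequent on the scaffolds as on the arms despite the smaller number of scaffold windows, and long H3K27me3-only runs were almost confined to the arms.

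Coordinates of runs are window centres in the dm3 assembly. The longest run high in H3K27me2 only spanned 325 kb near the centromere on 2R (665000 to 985000, 65 windows). Its mean log2 values were −0.17 for H3K27me3 and 0.33 for H3K27me2, and its mean percentiles were 35.6 and 88.2. A run at the centromere-proximal end of 2L (22625000 to 22790000, 34 windows) had mean percentiles of 18.6 and 90.5. One in the middle of the X chromosome (11990000 to 12155000, 34 windows) had 46.8 and 86.6. On the scaffolds, the longest was on 3RHet (1740000 to 1965000, 46 windows), with 33.2 and 89.4. Each of these 4 runs overlapped 1 SSR and no SNR, and the run on X also overlapped an under-replicated region.

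The longest run high in H3K27me3 only lay on 3L (12550000 to 12715000, 34 windows, 170 kb), with mean log2 values of 1.22 and −0.13 and mean percentiles of 97.3 and 31.5. It overlapped 1 SNR. A run on 2L (480000 to 620000, 29 windows) had mean percentiles of 93.5 and 37.4 and overlapped 4 SNRs, and a run on 3R (6370000 to 6510000, 29 windows) had 96.0 and 59.9 and overlapped 1 SNR. The longest on scaffolds was on U (800000 to 855000, 12 windows), with 94.8 and 39.5. None of the 3 runs on arms overlapped an SSR, whereas the run on U overlapped 1 SSR and no SNR.

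Runs high in both marks were shorter, the longest spanning 100 kb on 3L (6775000 to 6870000, 20 windows). Its mean log2 values were 0.62 for H3K27me3 and 0.37 for H3K27me2, and its mean percentiles were 92.3 and 90.03. The next were on 3R, at 9690000 to 9770000 (17 windows, mean percentiles 96.1 and 87.4) and at 2730000 to 2805000 (16 windows, 97.5 and 84.7). The last of these lies at the Antennapedia complex, the cluster of homeotic genes for head and anterior thorax. All 3 overlapped 1 SNR and no SSR. On U the longest was at 3210000 to 3270000 (13 windows), with 96.7 and 99.4. The longest stretch high in neither mark covered 460 kb of 3R (1060000 to 1515000, 92 windows), with mean percentiles of 26.6 and 18.4 and no overlap with any of the lists.

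Single windows showed how far the marks could part. On X, the window 8515001 to 8565000 had a log2 value of 2.66 for H3K27me3 and −0.735 for H3K27me2, or percentiles of 99.98 and 0.685. The window 15150001 to 15200000 on 2R had 1.6 and −0.545, and the window 12545001 to 12595000 on 3R had 2.42 and −0.475. The windows on X and 3R were centred in SNRs. These 3 were the windows furthest toward H3K27me3 on the arms when windows overlapping one already taken were passed over. In the opposite sense, 22480001 to 22530000 on 2L had −0.615 for H3K27me3 and 0.515 for H3K27me2, or percentiles of 2.38 and 96.1. The window 15905001 to 15955000 on X had −0.565 and 0.495, and the window 1525001 to 1575000 on 2R had −0.615 and 0.435. Only the one on 2L was centred in an SSR, and none of these 3 in an SNR.

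Published lists give 193 SSRs, where H3K27me3 falls in SuUR mutants, 158 SNRs, where it does not, and 101 under-replicated regions. SSRs and SNRs had been detected on ChIP-chip profiles of both genotypes obtained with other antibodies against H3K27me3, so a high H3K27me3 rank in SNRs and a lower one in SSRs belongs to their definition. Those antibodies are known to bind H3K27me2 to a small extent, and H3K27me2 was otherwise not part of the definition. A window centre lay inside 150 SNRs and all 193 SSRs. Each region was given the mean percentile of these windows. Many SNRs are shorter than a window, with a median length of 24.4 kb, so their values include flanking sequence.

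SNRs carried strong H3K27me3 and average H3K27me2. Over 150 SNRs, the median percentile was 95.1 for H3K27me3 (quartiles 90.5 and 97.0) and 47.2 for H3K27me2 (quartiles 32.4 and 64.2), with median log2 values of 0.85 and −0.00014. By mean percentile, 123 SNRs were high in H3K27me3 only, 12 in both, 3 in H3K27me2 only and 12 in neither. H3K27me3 ranked above H3K27me2 in 144 of them. H3K27me2 percentiles of SNRs ran from 5.29 to 91.7, and 22 SNRs lay below 25. In the 44 SNRs of at least 50 kb, the medians were 97.0 and 51.9, 41 were high in H3K27me3 only and 3 in both. Across the 150 SNRs the percentiles of the marks had a rho of −0.070.

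**Figure D4:**
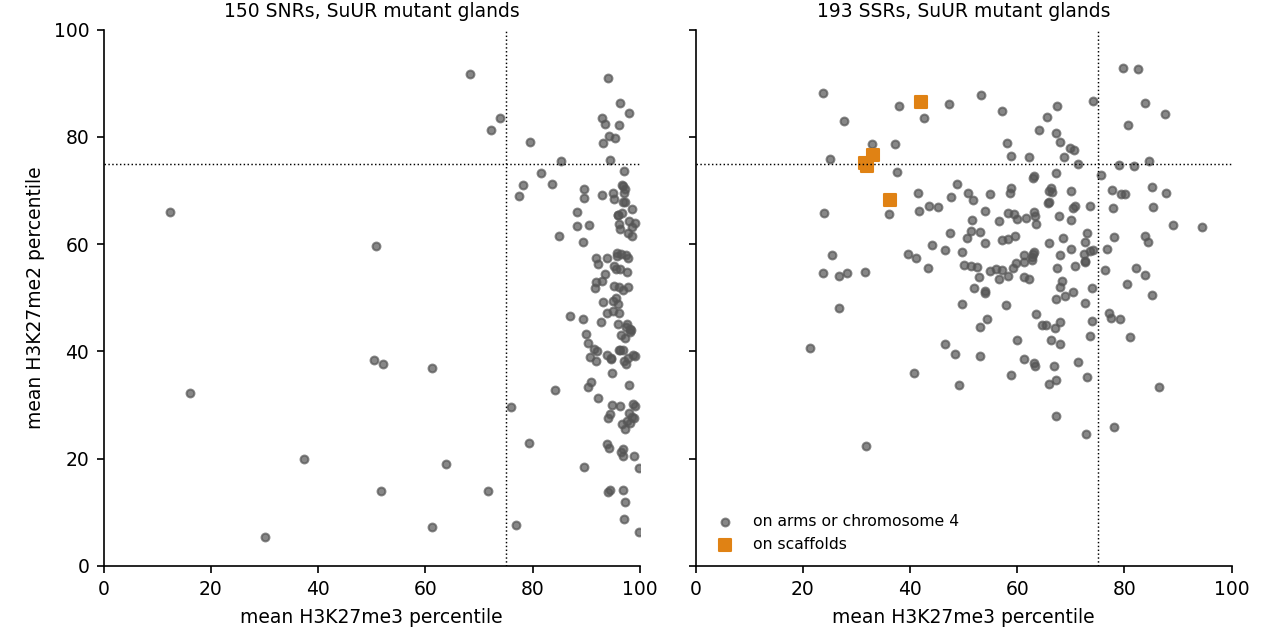
Mean percentile of H3K27me2 against that of H3K27me3 in SuUR mutant glands for each SNR (left) and each SSR (right), with dotted lines at percentile 75. SNRs crowd at the right edge over the H3K27me2 range from 5.29 to 91.7, SSRs gather in the middle of both axes, and the 5 SSRs on scaffolds (squares) lie at H3K27me3 percentiles from 31.5 to 42.1.

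The longest SNR (3R, 12484240 to 12803370, 64 window centres) spans the Bithorax complex, the homeotic genes of the posterior thorax and abdomen and a classical Polycomb target. Its mean log2 values were 1.90 for H3K27me3 and −0.077 for H3K27me2, or mean percentiles of 99.1 and 39.2. The second (3R, 2675150 to 2884750, 41 window centres), at the Antennapedia complex, had 1.29 and 0.078, or percentiles of 97.8 and 57.4. The H3K27me2 percentiles of these 2 SNRs differed, but both lay inside the quartiles of all SNRs, 32.4 and 64.2. Both SNRs stood at the top of the H3K27me3 profile. The SNR at 6312319 to 6499880 on 3R had percentiles of 95.2 and 68.4. Those at 11299690 to 11469231 on 2L and 6762030 to 6918450 on 3L had 95.7 and 57.9, and 94.2 and 80.2. Only the last was high in both marks, and it contains the longest run of that class.

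SSRs had both marks somewhat above the middle of the ranks. Their median percentile was 63.1 for H3K27me3 (quartiles 51.7 and 71.4) and 60.4 for H3K27me2 (quartiles 52.0 and 69.6). Arm windows outside SSRs and SNRs had 46.1 and 38.7. Most SSRs, 134 of 193, were high in neither mark, 27 were high in H3K27me3 only, 26 in H3K27me2 only and 6 in both. These counts hold a mean over windows to the limit set for single windows, and the windows themselves were spread more widely. Of the windows centred in SSRs, 41.2% were high in neither, below the 57.5% of all windows, 32.0% were high in H3K27me2 only, 17.4% in H3K27me3 only and 9.40% in both. In 118 SSRs the H3K27me3 percentile lay between 50 and 75, and in 120 the H3K27me2 percentile did. When windows rather than regions were weighted equally, which gives the long scaffold SSRs more weight, the medians were 56.1 and 68.9, and over the SSR windows of the arms 61.9 and 65.1. H3K27me3 ranked above H3K27me2 in 104 SSRs, or 53.9%, and rho between the marks over SSRs was −0.023. SSRs that overlapped a published under-replicated region (99) had medians of 63.1 and 60.9, and SSRs without overlap (94) had 63.1 and 58.5. The 6 SSRs high in both were all without overlap. SSRs without overlap were also shorter, with a median length of 76.0 kb against 187 kb, and the part of length in this split was not tested. The list of 101 under-replicated regions gave 65.9 and 58.7.

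The 5 SSRs on scaffolds stood apart, with a median percentile of 33.1 for H3K27me3 and 75.2 for H3K27me2 and the H3K27me2 rank higher in each of them. They include 4 of the 5 longest SSRs, 28950 to 3071439 on 2RHet (565 window centres), 219350 to 2475739 on 3LHet (450), 40030 to 2245239 on U (414) and 839110 to 2517499 on 3RHet (328). Mean percentiles of H3K27me3 and H3K27me2 in these were 31.9 and 74.7, 31.5 and 75.2, 36.3 and 68.2, and 33.1 and 76.6. The remaining one of the 5 longest, at the centromere-proximal end of 3L (22947810 to 24526499, 313 window centres), had 33.0 and 78.7. This SSR of an arm thus had ranks near those of the 4 long scaffold SSRs in both marks. Counted by window, scaffold windows centred in SSRs had medians of 26.1 for H3K27me3 and 84.9 for H3K27me2. Scaffold windows outside SSRs and SNRs had lower medians, 10.8 and 72.5.

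Across region centres the marks had different courses. At SNR centres the mean percentile was 89.9 ± 15.3 (SD, n = 153 regions) for H3K27me3 and 47.5 ± 24.0 for H3K27me2. At 100 kb to the left it was 56.3 ± 26.7 and 43.3 ± 26.5, and to the right 58.2 ± 29.6 and 43.8 ± 28.3. The SDs describe single regions and not the error of these means. At SSR centres the means were 61.7 ± 21.7 and 62.5 ± 22.0 (n = 186 regions). At 100 kb to the left they were 55.9 ± 25.9 and 49.3 ± 26.1, and to the right 53.4 ± 25.8 and 44.8 ± 26.7. The H3K27me2 mean was thus higher at the centre of SSRs than at 100 kb on either side, with a wide spread between regions.

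**Figure D5:**
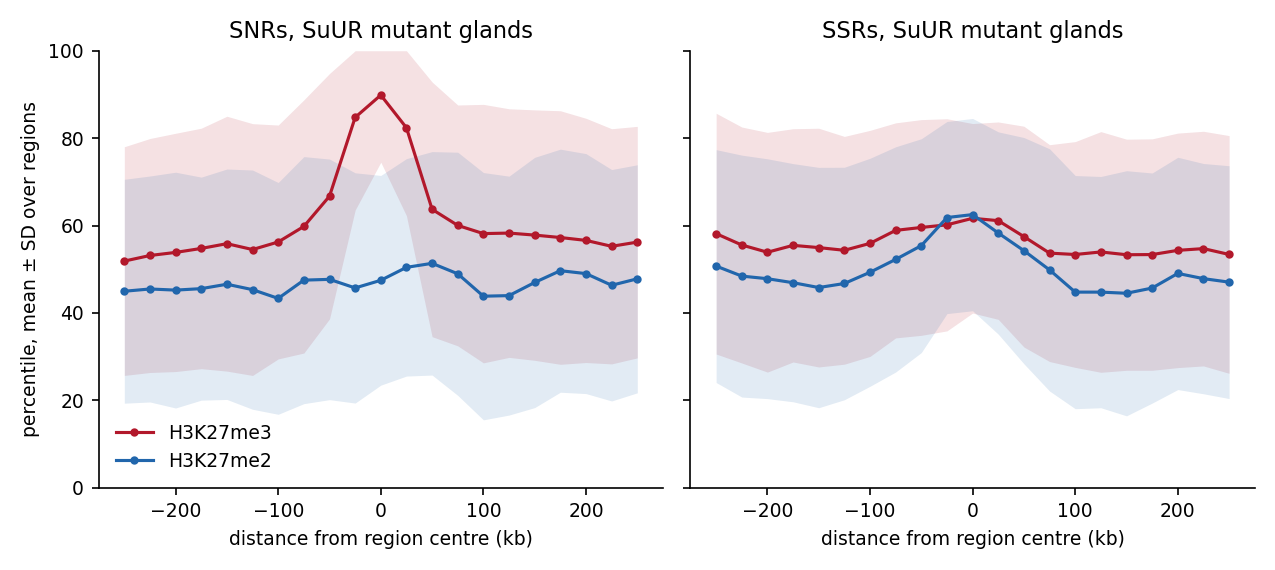
Mean percentile (line) ± SD over regions (band) of H3K27me3 (red) and H3K27me2 (blue) in SuUR mutant glands against distance in kb from the centre of SNRs (left) and SSRs (right). H3K27me3 reaches 89.9 at SNR centres while H3K27me2 is 47.5 there, and the marks meet at SSR centres with 61.7 and 62.5.

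The classes of windows divided the listed regions unequally. Of arm windows high in H3K27me2 only, 50.1% were centred in SSRs and 0.380% in SNRs, against 26.4% and 5.37% of all arm windows. Of those high in H3K27me3 only, 28.9% were in SSRs and 21.3% in SNRs. Of those high in both, 37.1% were in SSRs and 14.8% in SNRs, and of those high in neither, 19.2% and 0.249%. Windows in under-replicated regions made up 38.2% of the arm windows high in both, 31.4% of those high in H3K27me3 only, 28.1% of those high in H3K27me2 only and 15.1% of those high in neither, against 21.6% of all arm windows.

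The same classes were counted in the wild type profiles, to show where the SuUR pattern differs. In wild type 2984 windows (10.8%) were high in both, 13.9% in H3K27me3 only, 14.3% in H3K27me2 only and 60.9% in neither. The ratio to the product of shares was 1.74, and rho over non-overlapping windows was 0.43, and 0.46 on arms and chromosome 4. On scaffolds the wild type had 35.0% of windows high in both, whereas SuUR mutants had 8.43%. In wild type 58.9% of scaffold windows were high in H3K27me3 and 57.8% in H3K27me2. The scaffolds of SuUR mutants thus kept a wild type share of windows high in H3K27me2 (55.6%) with a much smaller share high in H3K27me3 (13.8%). Of the 1723 scaffold windows high in H3K27me2 only in SuUR mutants, 60.0% were high in H3K27me3 in wild type and 65.3% in H3K27me2. Next to the centromere on 3L, wild type had an H3K27me3 median of 89.3 against 30.8 in SuUR mutants, and on 2L the medians were 83.1 and 28.6. On X they were 63.3 and 23.9, on 2R 55.5 and 36.0, and on 3R both were 30.8. The profiles of the genotypes hold the same set of values within a mark, so only the order of windows can differ, and a higher rank in one place is balanced by a lower rank elsewhere.

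A window of SuUR mutants fell into the same class in wild type in 56.4% of cases, 60.9% on arms and chromosome 4 and 27.4% on scaffolds. The products of the class shares of the genotypes give 40.8%, 45.3% and 22.1%, so the scaffold value lay close to what the shares alone give. By class, 78.6% of the windows high in neither, 33.0% of those high in H3K27me3 only, 23.6% of those high in H3K27me2 only and 18.2% of those high in both kept their class. The wild type shares of these classes over all windows were 60.9%, 13.9%, 14.3% and 10.8%, so each class recurred in its own windows more often than in windows at large. On scaffolds, 33.4% of the windows high in both kept their class, where 35.0% of all scaffold windows were of that class in wild type. SNRs had the same order of marks in wild type, with medians of 92.4 and 53.9 for H3K27me3 and H3K27me2. In SSRs the order was turned when regions were weighted equally, with 60.9 and 66.8 in wild type against 63.1 and 60.4 in SuUR mutants. With SSR windows weighted equally, SuUR mutants had 56.1 and 68.9, and 61.9 and 65.1 on arms and chromosome 4. H3K27me2 thus ranked higher by that weighting also in the mutants. By the median over regions, the H3K27me3 rank of SSRs was slightly higher in SuUR mutants, also on arms and chromosome 4 (63.2 against 60.8). The median of all windows on arms and chromosome 4 differed more, 53.2 against 46.2. At SSR centres the mean percentile was 61.7 against 62.7, at 100 kb to the left 55.9 against 46.7 and to the right 53.4 against 46.5. SSRs, which were defined by a fall of this mark in SuUR mutants, thus stood less far above all arm windows in the mutants. The paper reports stronger signal in wild type across SSRs with the same antibodies. In the deposited profiles the median log2 value of H3K27me3 over SSRs was 0.048 in SuUR mutants and 0.0070 in wild type. The signals thus had the same order as the ranks, and the reason for the difference from the paper was not tested. On the 5 scaffold SSRs the H3K27me3 rank was lower in SuUR mutants, 33.1 against 72.8. Values of windows 5 kb apart on arms and chromosome 4 differed by a median of 0.055 in each SuUR profile and 0.045 in each wild type profile. The SuUR profiles were thus rougher over short distances, and the part of this in the lower rho and the lower class agreement was not tested.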

How the data were processed

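The gland libraries (8 of 20) were made from formaldehyde-fixed chromatin, sheared by sonication, with a Nextera kit per the labels. The authors mapped reads to the dm3 assembly with MOSAIK, scaled ChIP and input to RPM and deposited log2 values of their ratio in 50-kb windows every 5 kb, rounded to steps of 0.005 and quantile normalized between genotypes. A check of the sorted values found a largest difference of 0 between genotypes within a mark. Genotypes can therefore differ only in the order of windows. Read numbers are not given with the profiles, so the depth and the precision of each window are unknown. The methods mention 3 biological replicates for ChIP-seq, whereas the labels give 1 ChIP and 1 input library per gland profile, and whether material or libraries were pooled is not stated. The 12 embryo libraries and the DamID data were not analysed here.

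Windows of both marks were joined by chromosome and centre, and 46 and 26 windows found in one profile only were left out. Percentiles were calculated over the 27585 joined windows with ties averaged, and a window above percentile 75 was called high. Correlations used every 10th window, so that no sequence was shared, and are descriptions without p-values, as are all comparisons. SSR, SNR and under-replicated lists published with the study served as annotation. A window was assigned to a region by its centre.

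Regions were named by a rule: the 3 longest runs of each class with a high mark on the arms and the longest on scaffolds, the longest run high in neither, the 3 windows, chosen without overlap, at either extreme of the percentile difference on the arms, and the 5 longest SNRs and SSRs. The classes, lists and rule were chosen with earlier results of these data known. Homeotic complexes are named from general knowledge, as no dm3 annotation was used here. The alternatives changed the limit, the windows ranked, the grid and the assignment to regions, and those without the pericentric 2 Mb and with SNRs of at least 50 kb were added after seeing the data. The ranking, correlation, run and region steps were tested on simulated profiles. Their windows were independent, so the dependence between real overlapping windows was not covered. Python 3.11.15, numpy 2.4.6, pandas 2.3.3, scipy 1.17.1 and matplotlib 3.10.9 were used.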

Additional observations from a re-analysis of the deposited data

Results flagged for a closer look

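The contrast between scaffolds and arms had opposite signs in the genotypes for H3K27me3. The mean H3K27me3 percentile of scaffold windows minus that of arm windows was −22.3 in SuUR mutants and 19.9 in wild type. For H3K27me2 the same contrast was 20.0 in SuUR mutants and 20.2 in wild type. Each genotype had 1 profile per mark, and the difference between genotypes was not tested.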

How the results depend on the processing

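Of 58 alternative values, 35 stayed within the limits set for them, 22 moved and 1 changed sign. The limits for rho were its lowest and highest values over 10 grids, and these values were themselves counted among the 35. Wild type profiles, which are another genotype and not a change of processing, gave the value that changed sign. Windows high in both marks, 2047 in the main count, numbered 323 with the top 10% of each profile, 7985 with the top 50%, 6586 with log2 above 0 and 308 with ranks over the scaffolds alone. The ratio to the product of shares, 1.19, was 1.33 with ranks over arms and chromosome 4, 1.34 with ranks over scaffolds, 1.35 with ranks within each chromosome and 1.44 on arms without the pericentric 2 Mb, and it ranged from 1.11 to 1.31 over 10 grids of non-overlapping windows. The point values thus exceeded the product in each of these settings. The limits set for the main ratio, a binomial interval over a grid of non-overlapping windows, were 0.983 and 1.29 and included 1. Spearman's rho, 0.16, was 0.27 on arms and chromosome 4 and 0.32 on arms without the pericentric 2 Mb. The scaffold minus arm share of windows high in H3K27me3, −12.7 percentage points, was −2.14 with the top 10%, −28.3 with the top 50%, −21.2 with log2 above 0 and 39.4 in wild type. For H3K27me2 it was 35.1, and 25.5 with the top 50% and 23.3 with log2 above 0. In SNRs the H3K27me3 median of 95.1 became 98.2 with windows wholly inside, 97.2 with equal weight of windows and 97.0 for SNRs of at least 50 kb, and the H3K27me2 median of 47.2 became 53.6 with windows wholly inside. In SSRs equal weight of windows gave 56.1 for H3K27me3 and 68.9 for H3K27me2, so the order of the marks turned. The cause of these shifts was not tested. Bridging gaps of up to 2 steps left the number of long runs within 1.5 times the main number in each class.

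No paired analysis was possible because each genotype and mark had 1 profile. With 1 profile per genotype and mark and unknown depth, the error of a window's rank cannot be given, and windows of 50 kb cannot resolve most SNRs. On scaffolds, log2 values of adjoining windows without shared sequence were nearly uncorrelated by Pearson's r, and ranks were not examined in this way.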
